A study of Mus musculus with 18 samples.

Results

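The forkhead family of transcription factor genes was described in MC3T3-E1 (subclone 4), a C57BL/6 mouse line of bone-forming precursors derived from the calvaria, after inhibition of the H3K27 methyltransferase EZH2. Members were all protein-coding genes of the expression table whose symbol is Fox, a lower-case letter, digits and an optional letter, which gave 44 of the 43346 genes in the table and of the 22032 protein-coding ones. All samples came from cells kept until day 3 in osteogenic medium, maintenance medium with ascorbic acid and a glycerol phosphate added. The DMSO arm received 0.25% DMSO as vehicle and the EPZ6438 arm 2.5 µM EPZ6438, an inhibitor of EZH2; the labels do not say whether the EPZ6438 arm also received DMSO. The RNA libraries numbered 3 per arm, and chromatin immunoprecipitation for H3K27me3, H3K4me3 and input had 2 samples each per arm. The cells are 1 subclone of 1 line, and no label names separate cultures, so the p-values cover the spread among these libraries alone, and that spread may be technical.

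Forkhead proteins share a winged helix domain that binds DNA, and letters after Fox name the subfamilies. FoxO proteins act in the nucleus until insulin or growth factor signalling through AKT moves them out, FoxM1 drives genes of mitosis, and FoxA, FoxC, FoxD and FoxF proteins are known for setting up organs and mesenchyme in the embryo. In bone, FoxO proteins are known for guarding osteoblasts against oxidative stress, and Foxc1 for its role in forming the skull vault. Many developmental forkhead genes are classic targets of Polycomb repressive complex 2, the complex in which EZH2 writes H3K27me3, a mark of repressed genes. H3K4me3 marks the starts of active or poised genes.

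Reads in genes numbered 18807156 to 25365513 per RNA library, and 18289 to 19196 genes per library had a read. Forkhead genes together took 821 to 870 of every 1000000 reads in the DMSO libraries and 837 to 847 in the EPZ6438 libraries. Of the 44 members, 17 passed the filter for testing, at least 10 reads in at least 3 of the 6 libraries, which is 38.6% beside 54.8% of all protein-coding genes. The labelled cell type was checked by 13 osteoblast markers, whose summed level lay between 5282 and 7841 RPKM (reads per kilobase of gene and per 1000000 reads) in DMSO and between 7925 and 9719 RPKM in EPZ6438. Peaks were available as 1 merged list per mark and arm, with 143399 H3K27me3 peaks in DMSO and 20764 in EPZ6438, and 40113 and 16216 H3K4me3 peaks. The lists give neither heights nor any error between replicates, and their depth is not known, so an absent peak is not a measured absence of the mark.

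Most of the tested members carried H3K4me3 alone in DMSO, and most members with H3K27me3 had too few reads to be tested. A gene was counted as carrying a mark where a peak lay within 2.5 kb of either of its ends. In DMSO, H3K4me3 without H3K27me3 was found at 14 members, and 13 of these were expressed well enough to be tested: Foxm1, Foxk1, Foxk2, Foxo1, Foxo3, Foxj2, Foxn2, Foxp1, Foxp4, Foxf1, Foxf2, Foxc1 and Foxs1. The exception was Foxl2, known from the ovary, at a mean of 0.215 RPKM in DMSO. Both marks were found at 8 members, Foxa2, Foxa3, Foxb2, Foxd2, Foxe1, Foxi3, Foxp2 and Foxr1, of which only Foxd2 could be tested. H3K27me3 alone was found at Foxa1, Foxb1, Foxd4, Foxh1, Foxi1, Foxi2, Foxn4 and Foxo6, and none of these 8 passed the filter.

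Among all protein-coding genes, 96.0% of those with H3K4me3 alone in DMSO passed the filter, 56.6% of those with both marks and 22.0% of those with H3K27me3 alone. Of the 16 forkhead genes with H3K27me3 in DMSO, 1 was thus tested. This split depends on the window. H3K27me3 peaks of the DMSO list lay 3385 bp from the tested gene Foxo3, 3430 bp from Foxo1, 3859 bp from Foxj3 and 4076 bp from Foxp4. Another lay within the body of Foxn2. With a window of 5 kb the mark was found at 23 members in DMSO (52.3%, beside 45.6% of protein-coding genes). The 14 members with neither mark included 3 tested genes, Foxj3, Foxn3 and Foxo4. Over the body of each gene, the H3K4me3 list of EPZ6438 reached all 17 tested genes and that of DMSO 15 of them, Foxj3 and Foxn3 included, so their lack of a mark holds only for the ends of the gene as the table gives them.

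**Figure D1:**
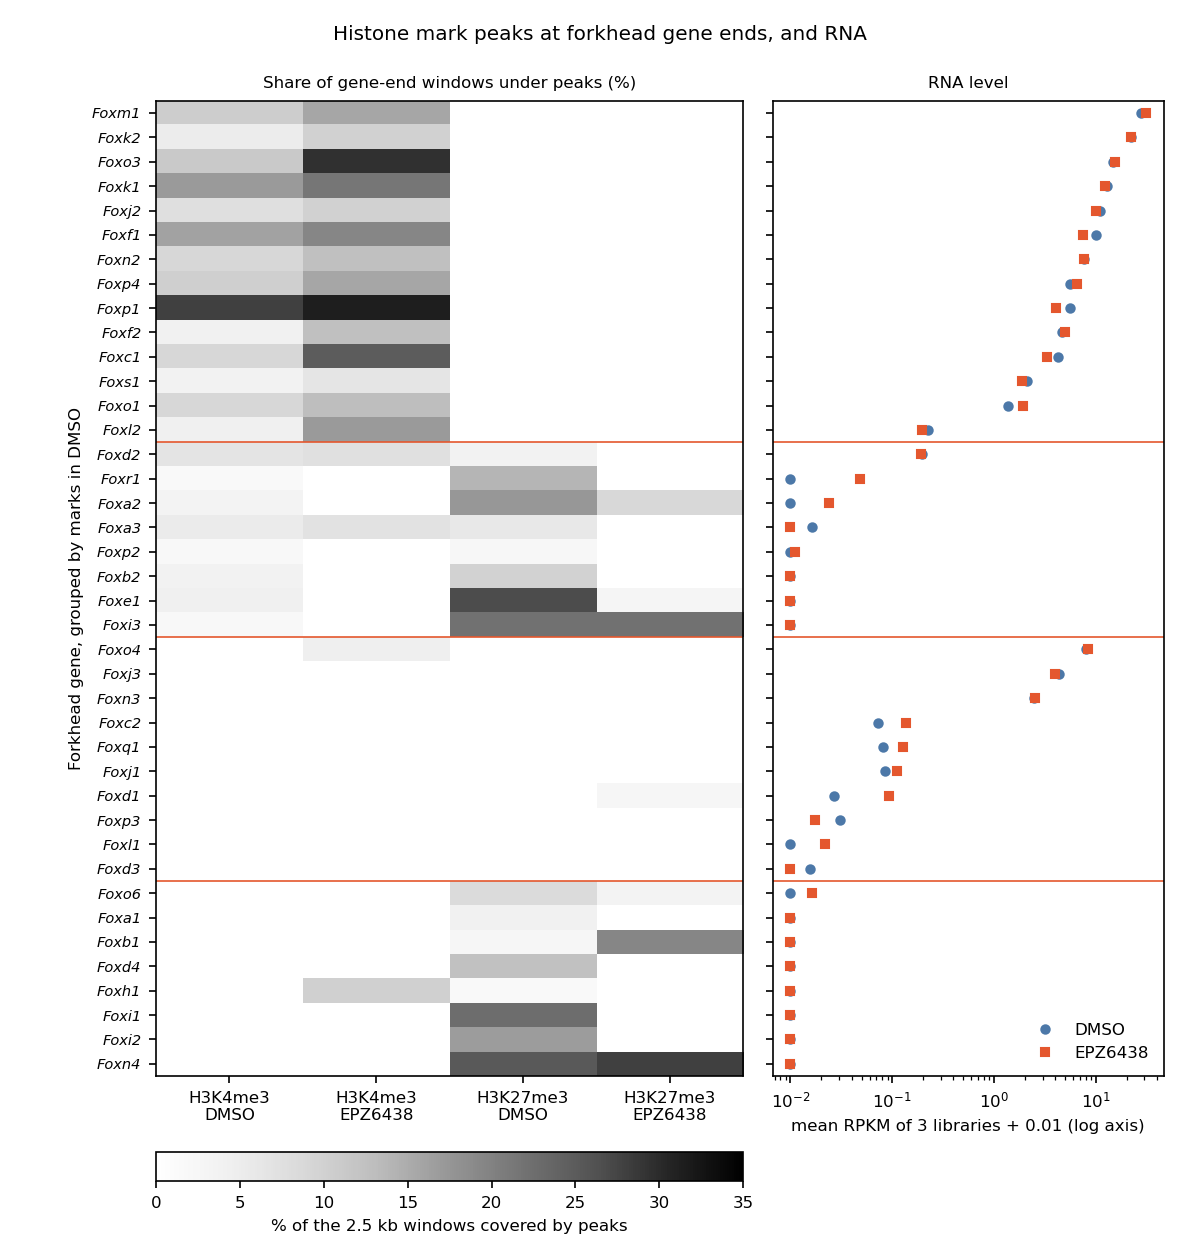
Left, share of the 2.5 kb windows around the ends of the 40 forkhead genes with a read in any library or a peak in any list that peaks of each merged list covered, in percent (grey scale); right, mean RPKM of the 3 libraries of each arm plus 0.01 on a log axis. Genes are grouped by their marks in DMSO, from the top H3K4me3 alone, both marks, neither mark and H3K27me3 alone, and the bottom group lies at or next to the left edge of the RNA axis in both arms.

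Sequences upstream of the starts were compared with the marks, using RefSeq windows (GRCm38.p6) from 250 bases before to 50 bases after the start, which were found for 28 of the 44 members. The letters searched were CG, the site of DNA methylation, read the same on both strands. The windows of forkhead genes held a median of 22 CG (from 3 to 59), and 23 of 28 held more than 7, the median over the windows of 27025 genes, 94.2% of which held at least 1 CG. By marks in DMSO the median was 32 for 9 members with H3K4me3 alone, 19 for 6 with both marks, 12 for 5 with H3K27me3 alone and 9 for 8 with neither. These marks are those within 2.5 kb of either gene end, and most of the windows themselves overlapped no DMSO peak. Foxj3, counted with neither mark, held 42 CG, and an H3K4me3 peak of the DMSO list lay 77 to 469 bp after its RefSeq start. The forkhead site letters TGTTTAC, or GTAAACA on the other strand, occurred in 1 of the 28 windows, that of Foxa1 (3.57%), beside 3.52% of all windows; no match says only that these letters are not in the window.

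Windows of 6 members are printed 5′ to 3′ on the strand of the gene, with each CG in capitals. By the 2.5 kb windows at the gene ends, Foxp1, whose RNA fell, Foxc1 and Foxo1 carried H3K4me3 alone, and Foxd2 carried both marks. Foxn4 and Foxi1 carried H3K27me3 alone, and they were chosen after their values were seen, as a gene with H3K27me3 at its start in both lists and one with H3K27me3 peaks in the DMSO list only. The windows are chr6:99520944-99521243 (minus strand, 13 CG) for Foxp1, chr13:31806396-31806695 (plus, 32 CG) for Foxc1, chr3:52268087-52268386 (plus, 31 CG) for Foxo1, chr4:114908849-114909148 (minus, 26 CG) for Foxd2, chr5:114273712-114274011 (minus, 22 CG) for Foxn4 and chr11:34208040-34208339 (minus, 6 CG) for Foxi1.
Foxp1: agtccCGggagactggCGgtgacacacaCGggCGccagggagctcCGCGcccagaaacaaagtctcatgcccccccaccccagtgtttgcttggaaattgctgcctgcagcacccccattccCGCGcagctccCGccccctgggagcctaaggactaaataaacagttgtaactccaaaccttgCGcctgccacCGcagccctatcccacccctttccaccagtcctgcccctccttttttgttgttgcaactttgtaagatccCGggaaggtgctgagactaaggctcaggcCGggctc
Foxc1: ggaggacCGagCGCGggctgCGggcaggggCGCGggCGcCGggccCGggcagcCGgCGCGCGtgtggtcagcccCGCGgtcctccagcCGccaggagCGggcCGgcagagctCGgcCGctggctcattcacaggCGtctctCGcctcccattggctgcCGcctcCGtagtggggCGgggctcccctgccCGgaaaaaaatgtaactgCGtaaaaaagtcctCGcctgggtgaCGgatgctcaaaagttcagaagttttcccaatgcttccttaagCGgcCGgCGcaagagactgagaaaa
Foxo1: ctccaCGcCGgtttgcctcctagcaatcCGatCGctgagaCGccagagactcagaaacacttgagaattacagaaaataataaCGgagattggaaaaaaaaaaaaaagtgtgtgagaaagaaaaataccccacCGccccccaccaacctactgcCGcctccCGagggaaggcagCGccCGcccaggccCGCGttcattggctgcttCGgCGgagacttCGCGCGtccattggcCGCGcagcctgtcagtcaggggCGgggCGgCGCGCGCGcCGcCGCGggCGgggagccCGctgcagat
Foxd2: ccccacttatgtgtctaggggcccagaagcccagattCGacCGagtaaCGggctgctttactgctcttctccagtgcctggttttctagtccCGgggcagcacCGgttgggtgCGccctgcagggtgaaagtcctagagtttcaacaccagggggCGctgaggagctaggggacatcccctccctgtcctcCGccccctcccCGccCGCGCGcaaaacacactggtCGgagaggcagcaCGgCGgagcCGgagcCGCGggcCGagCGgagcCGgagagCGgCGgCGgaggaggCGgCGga
Foxn4: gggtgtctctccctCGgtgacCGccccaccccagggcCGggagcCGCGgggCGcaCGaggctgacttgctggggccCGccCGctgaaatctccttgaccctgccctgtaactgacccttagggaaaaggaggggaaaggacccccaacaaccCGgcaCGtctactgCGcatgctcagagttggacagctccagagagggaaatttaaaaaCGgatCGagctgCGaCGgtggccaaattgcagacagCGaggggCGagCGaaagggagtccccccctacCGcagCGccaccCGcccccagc
Foxi1: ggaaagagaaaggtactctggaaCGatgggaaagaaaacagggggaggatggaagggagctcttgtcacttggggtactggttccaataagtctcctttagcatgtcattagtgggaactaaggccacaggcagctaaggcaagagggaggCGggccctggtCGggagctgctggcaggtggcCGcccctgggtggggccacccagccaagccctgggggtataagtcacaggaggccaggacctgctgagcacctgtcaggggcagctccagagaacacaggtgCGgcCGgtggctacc

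Around these starts the peaks lay in different places. At Foxp1, an H3K4me3 peak of the DMSO list ran from 188 bp before to 521 bp after the start, and under EPZ6438 a peak ran from 1141 bp before to 605 bp after it. This RefSeq start lies within the gene span used here, chr6:98925338-99522721, and not at its end. Of the 5 H3K4me3 peaks of Foxp1 in DMSO, the widest, of 988 bp, ran from 2472 to 1485 bp before the RefSeq start. At Foxc1 the nearest H3K4me3 peaks began downstream, 1067 bp after the start in DMSO and 574 bp after it in EPZ6438, and at Foxo1 764 and 279 bp after it. Foxo1 also had an H3K27me3 peak in DMSO from 3624 to 3431 bp before the start, outside the 2.5 kb window. At Foxd2 the H3K4me3 peak covered the start in both lists, from 36 bp before to 465 bp after it in DMSO. The H3K27me3 peak of Foxd2 in DMSO, 286 bp wide, lay apart from it, from 4244 to 4529 bp downstream.

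Foxn4 and Foxi1 show both outcomes at genes with H3K27me3 alone. In DMSO, an H3K27me3 peak of 848 bp covered the start of Foxn4, a gene of retinal and spinal cord progenitors, and in EPZ6438 a single peak of 2803 bp ran from 2172 bp before to 630 bp after the start. The 2 DMSO peaks near the other end of Foxn4 overlapped no EPZ6438 peak. At Foxi1, a regulator of ionocytes in the inner ear and kidney, a peak of 1335 bp ended 170 bp before the start in DMSO, and no peak was left in EPZ6438. Neither gene had a read in any of the 6 RNA libraries.

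**Figure D2:**
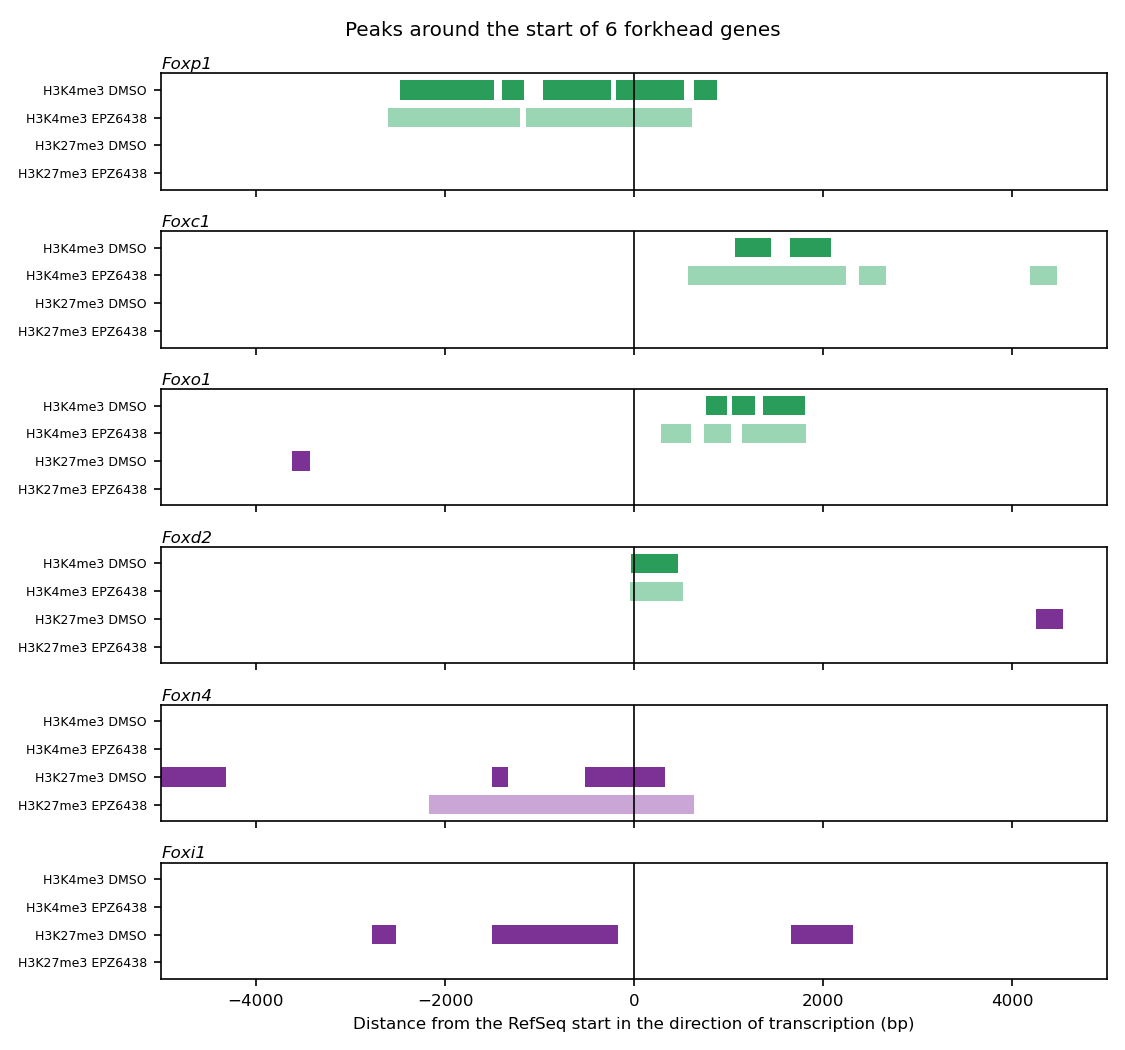
Peaks of the 4 merged lists from 5000 bp before to 5000 bp after the RefSeq start of 6 forkhead genes, in the direction of transcription; bars are peaks and have no height. Foxp1 and Foxd2 have H3K4me3 across the start in both lists, Foxn4 has a single wider H3K27me3 peak in EPZ6438, and the peaks of Foxi1 are in the DMSO list only.

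The expressed members spanned a wide range of levels, compared here per gene length as RPKM. Foxm1, the mitotic regulator, stood highest, at 25.1, 29.0 and 29.3 RPKM in DMSO and 30.1, 32.8 and 30.8 RPKM in EPZ6438. Foxk2, of a subfamily known for regulating glycolysis and autophagy, followed at 22.3, 22.7 and 21.4 RPKM in DMSO and 22.8, 21.3 and 22.2 RPKM in EPZ6438. Its relative Foxk1 was at 11.4, 12.9 and 14.2 RPKM in DMSO and 11.6, 12.7 and 12.4 RPKM in EPZ6438. For Foxm1 every EPZ6438 value lay above every DMSO value, while the arms overlapped for Foxk1 and Foxk2.

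Among the FoxO genes, Foxo3 was at 14.6, 15.1 and 14.5 RPKM in DMSO and 16.5, 14.8 and 15.4 RPKM in EPZ6438, with arms that overlapped. Foxo4 had means of 7.96 and 8.35 RPKM, and Foxo1 of 1.35 and 1.90 RPKM. Foxo6, known from the brain, had 1 read in all 6 libraries together. Foxo3 thus made up most of the summed FoxO RPKM in both arms.

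Foxj2 was at 10.1, 11.6 and 10.9 RPKM in DMSO and 10.0, 9.67 and 10.1 RPKM in EPZ6438, with overlapping arms. The 6 most abundant members, Foxm1, Foxk2, Foxo3, Foxk1, Foxj2 and Foxf1, held 68.1% of the summed forkhead RPKM. Over all 6 libraries, the ranges of Foxm1, Foxk2, Foxo3 and Foxk1 did not overlap from each gene to the next. From Foxk1 down through Foxj2, Foxf1, Foxo4, Foxn2, Foxp4, Foxp1, Foxf2, Foxj3, Foxc1, Foxn3, Foxs1 and Foxo1, each gene's range overlapped that of the next. A gap followed between Foxo1, lowest at 1.18 RPKM, and Foxd2, highest at 0.304 RPKM.

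**Figure D3:**
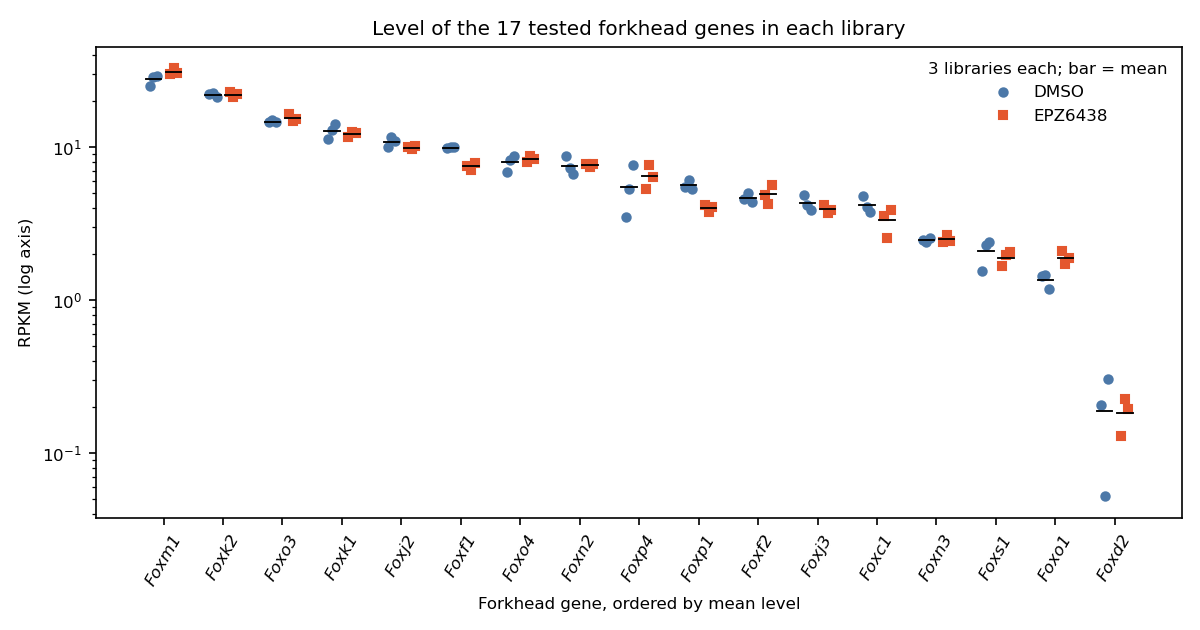
RPKM of the 17 tested forkhead genes in each of the 3 libraries per arm, on a log axis, with the mean of each arm as a bar. Foxf1 and Foxp1 have EPZ6438 values wholly below the DMSO values, Foxo1 and Foxm1 wholly above, and Foxd2 lies below all others.

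Under EPZ6438, Foxp1 and Foxf1 passed the test as lower, and no tested forkhead gene passed as higher. Neither gene passed with any 1 library left out, and 27 members were not tested. Of the 17 tested members, 2 (11.8%) had an adjusted p under 0.05 in limma, which tested log2(RPKM + 0.1) across 14213 genes, of which 7.04% were called, 3.8% higher and 3.24% lower. Without the adjustment 3 members (17.6%) had a p under 0.05, beside 20.6% of all tested genes, and 4 (23.5%), Foxp1, Foxf1, Foxo1 and Foxm1, had arms that did not overlap, beside 26.7%. Differences are given as log2 of EPZ6438 minus DMSO. Their median was 0.02 over the 17 members and -0.03 over all tested genes, and their median size without sign was 0.11 and 0.17. In bulk RNA, fewer cells of a type and less RNA per cell cannot be told apart.

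Foxp1, a repressor known from lymphocytes and from mesenchymal progenitors of bone, lies at chr6:98925338-99522721. Its level was 5.45, 6.06 and 5.36 RPKM in DMSO and 4.21, 3.77 and 4.07 RPKM in EPZ6438. All EPZ6438 values lay below all DMSO values. The means were 5.62 ± 0.381 and 4.02 ± 0.223 RPKM (SD, n = 3 each), a log2 difference of -0.47 (SE 0.11, 95% interval -0.73 to -0.22, limma adjusted p = 0.0459), or 0.714 of the DMSO level. Its relative Foxp4 had means of 5.51 ± 2.08 and 6.48 ± 1.19 RPKM, and the spread of Foxp4 within each arm left an interval from -0.37 to 0.94.

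Foxf1, a Hedgehog-responsive gene of lung and gut mesenchyme at chr8:121084386-121088144, was at 9.86, 9.98 and 9.97 RPKM in DMSO and 7.53, 7.12 and 7.92 RPKM in EPZ6438. The DMSO values lay close together and all above those of EPZ6438. With means of 9.94 ± 0.0682 and 7.52 ± 0.401 RPKM, the log2 difference was -0.40 (SE 0.09, 95% interval -0.60 to -0.19, limma adjusted p = 0.0406), or 0.757 of the DMSO level. Both calls were close to the threshold. Without any 1 of the 6 libraries neither gene was called, at adjusted p from 0.0560 to 0.178 for Foxf1 and from 0.0581 to 0.206 for Foxp1, while the log2 differences stayed between -0.44 and -0.36 and between -0.51 and -0.42. The call of Foxp1 also ended with no filter on low reads (adjusted p = 0.0763). Foxf2, its closest relative, had means of 4.66 and 4.92 RPKM (log2 difference 0.07, interval -0.25 to 0.38).

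Fendrr, a long noncoding RNA whose gene ends within 2.5 kb of Foxf1, was looked at after these values were seen. Its means were 3.68 ± 0.0361 RPKM in DMSO and 2.84 ± 0.357 RPKM in EPZ6438, a log2 difference of -0.37 that did not pass (limma adjusted p = 0.158). The noncoding Foxd2os beside Foxd2 was at 2.54 and 2.72 RPKM (adjusted p = 0.756) and Foxl2os beside Foxl2 at 5.38 and 6.52 RPKM (adjusted p = 0.156). The genes of these pairs share no bases in the table, but a peak between them cannot be assigned to either.

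Foxo1, at chr3:52268336-52353221, was at 1.44, 1.45 and 1.18 RPKM in DMSO and 2.11, 1.71 and 1.87 RPKM in EPZ6438. All EPZ6438 values lay above all DMSO values. The means of 1.35 ± 0.153 and 1.90 ± 0.198 RPKM gave a log2 difference of 0.46 (SE 0.15, interval 0.10 to 0.82) that did not pass over all genes (limma adjusted p = 0.137). Foxo3 had a log2 difference of 0.08 (SE 0.08, adjusted p = 0.629) and Foxo4 of 0.07 (adjusted p = 0.773).

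Foxc1, at chr13:31806691-31810643, was at 4.83, 4.06 and 3.75 RPKM in DMSO and 3.53, 2.55 and 3.87 RPKM in EPZ6438, so that the arms overlapped. Means of 4.21 ± 0.555 and 3.31 ± 0.686 RPKM gave a log2 difference of -0.35 (interval -0.78 to 0.08, limma adjusted p = 0.341). Foxd2, known from mesenchyme of the face and kidney, was the 1 tested member with H3K27me3 in DMSO. It stood at 0.205, 0.0521 and 0.304 RPKM in DMSO, from 10, 3 and 20 reads, and at 0.128, 0.224 and 0.193 RPKM in EPZ6438, from 7, 14 and 10 reads. The arms overlapped, and at this depth the interval of the log2 difference ran from -0.81 to 0.95.

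For the most abundant members the intervals were narrow. The log2 difference of Foxm1 was 0.17 (SE 0.09, limma adjusted p = 0.340), of Foxk1 -0.06 (SE 0.10, adjusted p = 0.799) and of Foxj2 -0.13 (SE 0.09, adjusted p = 0.498). Foxk2 had means of 22.1 ± 0.657 and 22.1 ± 0.801 RPKM, with an interval from -0.17 to 0.17. Over the 17 tested genes, the 95% interval for RPKM + 0.1 lay within 1.5-fold in either direction for 11 and within 2-fold for all 17. For Foxd2, at levels near the added 0.1 RPKM, this interval does not bound the fold of RPKM itself. Its log2 difference was 0.07, and 0.21 with 0.01 RPKM added. The other tested members, given as DMSO and EPZ6438 means, were Foxn2 at 7.58 and 7.66 RPKM, Foxj3 at 4.32 and 3.92, Foxn3, a checkpoint suppressor, at 2.46 and 2.49, and Foxs1 at 2.08 and 1.89 RPKM. None of these passed the test.

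**Figure D4:**
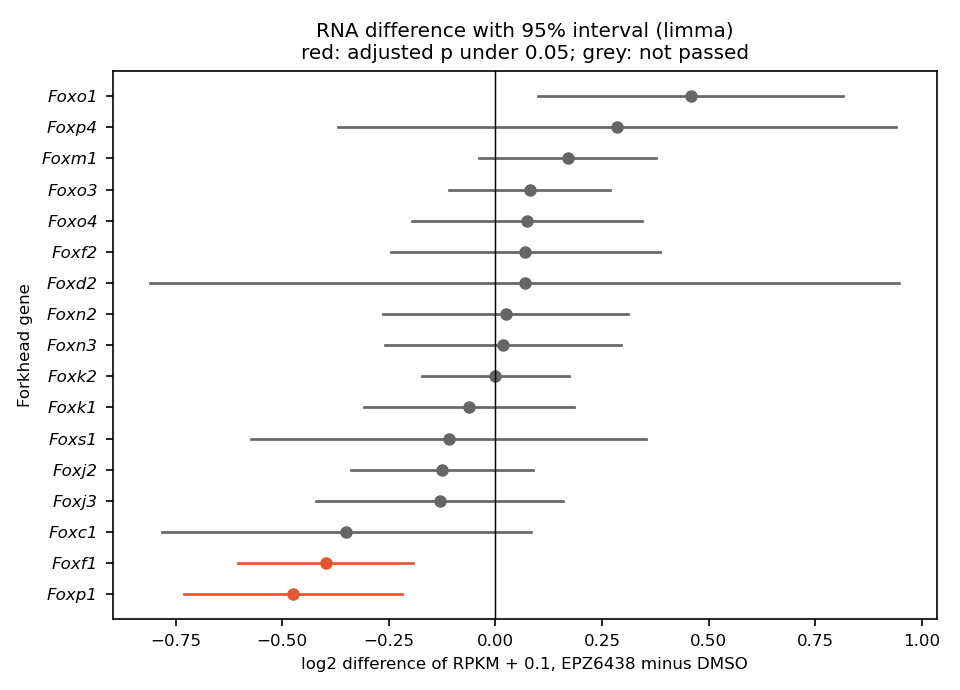
log2 difference of RPKM + 0.1, EPZ6438 minus DMSO, of the 17 tested forkhead genes, with 95% intervals from limma (3 libraries per arm). Foxp1 at -0.47 and Foxf1 at -0.40 (red) have an adjusted p under 0.05, and Foxd2, from few reads, has the widest interval.

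The 27 members that were not tested were at or near 0. For 14 there was no read in any library, and 10 of these carried H3K27me3 in DMSO: Foxa1, Foxb1, Foxb2, Foxd4, Foxe1, Foxh1, Foxi1, Foxi2, Foxi3 and Foxn4, genes known from endoderm, hypothalamus, thyroid, ectoderm and other tissues. A count of 0 allows up to 3 reads, which is 0.118 to 0.160 per 1000000 reads in these libraries. The other 13 had at most 11 reads in a library. Foxc2, known from lymphatic vessels and mesenchyme, had 1, 5 and 6 reads in DMSO and 5, 11 and 7 in EPZ6438. Foxd1, a gene of kidney stroma, had 0, 1 and 2 reads in DMSO and 5, 3 and 5 in EPZ6438, so that its arms did not overlap (limma without a filter on low reads, adjusted p = 0.198). Foxp3, known from regulatory T cells, had 0, 2 and 4 reads in DMSO and 0, 1 and 1 in EPZ6438.

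Most forkhead genes with H3K27me3 in DMSO had no H3K27me3 peak in the EPZ6438 list. The EPZ6438 list held a peak at 7 of the 44 members (15.9%, beside 6.82% of protein-coding genes), and the DMSO list at 16 (36.4%, beside 31.1%). The mark was in both lists at 6 members, Foxa2, Foxb1, Foxe1, Foxi3, Foxn4 and Foxo6, which is 37.5% of the 16 beside 20.7% of protein-coding genes marked in DMSO. It was in the DMSO list alone at 10 members: Foxa1, Foxa3, Foxb2, Foxd2, Foxd4, Foxh1, Foxi1, Foxi2, Foxp2 and Foxr1. Only Foxd1 had a peak in the EPZ6438 list alone, of 185 bp. These counts have no test, since there is 1 merged list per arm.

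Of the 16 members marked in DMSO only Foxd2 had enough reads to be tested, so the RNA test says nothing of the other 15. Among the 10 without a peak in EPZ6438, Foxd2 had 33 reads in DMSO and 31 in EPZ6438. Foxr1 had 0 and 4, all of them in EPZ6438 replicate 1, and no other had more than 1 read in either arm. Among all protein-coding genes with the mark in the DMSO list alone, 2094 were tested, of which 188 rose and 42 fell. With the mark in both lists 202 were tested, of which 49 rose and 7 fell. With the mark in neither list 9756 were tested, of which 272 rose and 376 fell. The 6 members with a peak in both lists had 0 reads in DMSO and at most 2 in EPZ6438. The endodermal pioneer gene Foxa2 was the one with 2 reads.

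The covered length also changed unevenly. H3K27me3 peaks covered 17226 bp of the windows at forkhead gene ends in DMSO and 8061 bp in EPZ6438. Covered length at Foxe1, a thyroid gene, went from 2085 to 226 bp and at Foxa2 from 1578 to 800 bp. At Foxi3, a gene of the ectoderm, it was 2103 and 2106 bp, and at Foxb1, of the hypothalamus, it went from 223 to 1599 bp. In all, 3 of the 6 members in both lists had more covered length in EPZ6438 and 3 less, while 15.8% of 1413 protein-coding genes in both lists had more.

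At the 6 members where H3K4me3 peaks overlapped H3K27me3 peaks in DMSO, H3K4me3 was missing from the EPZ6438 list. At 6 of the 8 members with both marks in DMSO, Foxa2, Foxb2, Foxe1, Foxi3, Foxp2 and Foxr1, a peak of H3K4me3 and a peak of H3K27me3 shared bases, and none of the 6 had an H3K4me3 peak in the EPZ6438 list. At Foxa3 and Foxd2 the peaks did not overlap, and both kept H3K4me3 in EPZ6438. Among all protein-coding genes with both marks, the H3K4me3 peak was absent from the EPZ6438 list for 72.8% of 1284 genes with overlapping peaks and for 13.3% of 1005 without. The split was noticed after the values were seen, and it has no replicate error. The widest H3K4me3 peaks of the 6 genes were 177 to 322 bp, and those of Foxa3 and Foxd2 were 354 and 502 bp. In the whole H3K4me3 lists, 9.13% of the peaks were at least 400 bp wide in DMSO and 50.3% in EPZ6438. The RNA filter was passed by 36.3% of the 1284 coding genes with overlapping peaks and by 82.5% of the 1005 without. The part of peak width and RNA level in the split was not tested. The window of Foxa3 also holds the end of Sympk, an expressed gene at 13.2 RPKM, so its H3K4me3 peak cannot be told apart from that of its neighbour.

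At members with H3K4me3 in both lists, the peaks covered more bases in EPZ6438. H3K4me3 was found at 22 members in DMSO (50.0%, beside 39.5% of protein-coding genes) and at 18 in EPZ6438 (40.9%, beside 43.6%). With peaks of at least 400 bp alone, the count was 10 in DMSO (22.7%, beside 12.3% of protein-coding genes) and 18 in EPZ6438 (40.9%, beside 32.1%). Which arm had more marked members thus depends on peak width. The windows of 6 members, Foxa3, Foxh1, Foxk1 and Foxm1 among them, also hold an end of another coding gene at 1 RPKM or more in DMSO. A peak near such an end cannot be assigned to the forkhead gene. The only H3K4me3 peak of Foxh1, in EPZ6438, covers an end of Ppp1r16a, a gene at 6.08 RPKM in EPZ6438. All 16 members with a peak in both lists had more covered length in EPZ6438, with a median of 855.5 bp in DMSO and 1278 bp in EPZ6438, as did 87.8% of 7275 protein-coding genes. At Foxc1 it went from 809 to 2223 bp, at Foxo3 from 1112 to 2951 bp and at Foxo1 from 902 to 1292 bp. The genes whose RNA fell had more as well, Foxp1 with 2795 and 3141 bp and Foxf1 with 1403 and 1702 bp. The whole lists moved the same way: the median H3K4me3 peak was 212 bp wide in DMSO and 401 bp in EPZ6438, and its part in these differences was not tested.

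Several forkhead genes lie in clusters, defined here as members within 200 kb of each other. Foxq1, Foxf2 and Foxc1 lie at chr13:31555824-31813143 with 2.5 kb added at each end. None of them had an H3K27me3 peak within 2.5 kb of its ends, yet the 175.3 kb between Foxf2 and Foxc1 held 25 H3K27me3 peaks in DMSO, covering 18.3 kb or 10.4% of it, beside 3.28% of all chromosomes, each taken up to its last peak. In EPZ6438 it held 4 peaks, covering 2.64 kb, each overlapping a DMSO peak. The widest DMSO peak ran over chr13:31693368-31695612. The 64.8 kb between Foxq1 and Foxf2 held no H3K27me3 peak in either list. Foxf2 and Foxc1, on either side of the marked stretch, did not pass the RNA test.

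Foxf1, Foxc2 and Foxl1 lie at chr8:121081886-121133144, with the same 2.5 kb added. The 28.0 kb between Foxf1 and Foxc2 held 2 H3K27me3 peaks in DMSO, covering 1.70 kb, and none in EPZ6438, and H3K4me3 peaks numbered 5 over the cluster in both lists. The stretch between Foxf1 and Foxc2 also holds Gm26572 and Mthfsd, with a highest mean of 4.86 RPKM, so H3K4me3 peaks there need not belong to forkhead genes. Of the forkhead genes in the cluster only Foxf1 was expressed well enough to be tested, and it fell. Foxc2 was at 0.0629 and 0.128 RPKM and Foxl1 had 2 reads, both in EPZ6438 replicate 1. Foxd2 and Foxe3, a lens gene, at chr4:114903782-114928513 with the same margins, had 1 H3K27me3 peak in DMSO and none in EPZ6438, and Foxe3 had no read.

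Genes known to be downstream of FoxO proteins moved in both directions. Of 25 such genes, 20 were tested, of which 1 rose, 5 fell and 14 did not pass, beside 3.8% of all tested genes called higher and 3.24% lower (median log2 difference -0.14, beside -0.03 over all tested genes). The cyclin-dependent kinase inhibitor gene Cdkn1a rose from 104 ± 3.94 to 192 ± 6.69 RPKM (log2 difference 0.89, limma adjusted p = 0.000974). Pdk4, a kinase that restrains glucose oxidation, fell from 14.7 ± 1.88 to 5.37 ± 1.22 RPKM (log2 difference -1.45, limma adjusted p = 0.00413). The transcriptional coregulator Cited2 fell from 15.7 to 10.8 RPKM (limma adjusted p = 0.00944) and the cyclin-dependent kinase inhibitor Cdkn1b from 32.0 to 22.5 RPKM (limma adjusted p = 0.0181). The other genes that fell, outside the naming rule, were the stress gene Sesn3 and Txnip, an inhibitor of thioredoxin. Pck1, Klf15, Igfbp1 and G6pc, metabolic genes of the liver and muscle, were at 0 in every library.

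Without single libraries 2 to 5 of the FoxO-linked genes passed. The call of Cited2 ended without DMSO replicate 2 or EPZ6438 replicate 2 or 3 (adjusted p from 0.0561 to 0.0738), and that of Cdkn1b without DMSO replicate 2 or any 1 EPZ6438 library (0.0672 to 0.108). Of 19 kinases and other regulators that act on FoxO proteins, 1 rose and none fell (median 0.02). Over all tested genes 3.8% were called higher and 3.24% lower. The regulator that rose was the kinase gene Sgk3, from 0.216 ± 0.0561 to 0.523 ± 0.00139 RPKM (log2 difference 0.99, limma adjusted p = 0.0257). Its call ended without a filter on low reads and without any 1 library other than DMSO replicate 1 (adjusted p from 0.0554 to 0.124).

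None of the 19 mitotic genes known as FoxM1 targets passed in limma, in which 3 had an unadjusted p under 0.05 (Aurka, Aurkb and Cdc20, named after their values were seen), and none passed with voom on the recovered reads. Over all tested genes 3.8% passed as higher and 3.24% as lower, and 20.6% had an unadjusted p under 0.05. The median log2 difference of the 19 mitotic genes was 0.09. Kif20a, a mitotic kinesin and the most abundant of them, had means of 54.3 ± 5.09 and 53.7 ± 1.56 RPKM (adjusted p = 0.960). Of 15 Hedgehog pathway genes, which are known to act upstream of Foxf1, Foxf2 and Foxd1, 9 were tested. The receptor and target gene Ptch1 rose (log2 difference 0.73, limma adjusted p = 0.00804, but 0.0543 without DMSO replicate 2), and the co-receptor gene Gas1 fell (-1.48, adjusted p = 0.000515). Of 13 genes of Polycomb repressive complex 2 and of H3K27 demethylases, Phf19, an accessory subunit, was the 1 that passed. It went from 0.336 ± 0.0661 to 0.791 ± 0.0572 RPKM (log2 difference 1.04, limma adjusted p = 0.0171), a call that ended without a filter on low reads and without any 1 EPZ6438 library (adjusted p of 0.0622 or more).

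Markers of other cell types in which forkhead genes are expressed were also measured. The summed level of 8 endothelial markers was at most 0.121 RPKM in either arm, with Cdh5, Kdr, Emcn and Cldn5 at 0, and that of 8 epithelial markers at most 0.629 RPKM, with Epcam, Krt8, Krt18, Cldn3 and Cldn4 at 0. The 6 adipocyte markers summed to 0.345 to 0.616 RPKM in DMSO and 0.161 to 0.268 RPKM in EPZ6438. The 7 blood cell markers in the table summed to 14.8 to 17.5 and 17.8 to 20.2 RPKM, with only the T cell marker Cd3e at 0. Of these blood cell markers 2 had enough reads to be tested, and neither passed. Chondrocyte markers did differ between the arms: 4 of the 6 that were tested rose and none fell, and the summed level of 8 went from 19.4 to 30.6 RPKM in DMSO to 97.1 to 131 RPKM in EPZ6438, with Acan at 0. Of 13 osteoblast markers 7 rose and 1 fell, beside 3.8% of all tested genes called higher and 3.24% lower. The part of these shifts in the falls of Foxp1 and Foxf1 was not tested.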

How the data were processed

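RNA was measured in 6 libraries, 3 per arm, and H3K27me3 and H3K4me3 in 1 merged peak list per arm. The authors deposited RPKM per gene, per the file headers, with gene positions and no strand, and for each list other values, peak starts and ends. Per the submitters' processing notes, which give no roles, the build was mm10 and the software MACS2, DiffBind, HOMER, Picard, Subread, STAR 2.6.1c, FastQC and bcl2fastq. Peak thresholds, strand setting and annotation release: not given in the sources used here.

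Multiplied by gene length (1 base added) and divided by 1000, the RPKM of a library summed to 1000000. In units of the smallest step, 100% of nonzero values were whole reads (tolerance 0.001). Floors of 3 reads cover counting error only, since reads carry no molecular identifiers. The intervals come from the limma fit and cover the spread among these libraries.

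The test was limma 3.58.1 in R 4.3.3 (trend, empirical Bayes, two-sided, no block) on log2(RPKM + 0.1), for genes reaching 10 reads in 3 or more libraries, with Benjamini-Hochberg adjustment over all 14213 genes and a threshold of 0.05. This scale understates the change of low genes. A peak belonged to a gene if 1 bp or more of it lay within 2.5 kb of either gene end; this was done with pandas 2.3.3 and numpy 2.4.6 in Python 3.11.15, and matplotlib 3.10.9 drew the figures. Promoter windows came from RefSeq (GRCm38.p6).

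Genes named with every library were forkhead genes that passed, Foxf1, Foxc1 and Foxo1, the 6 most abundant, and those tested with H3K27me3 in DMSO. From each gene list up to 4 passing genes by p, or else the most abundant, were named. The members, the gene lists and the rules were chosen with earlier results of these data known. Alternatives covered filters, pseudocounts of 0.01, 0.5 and 1 RPKM, scaling, voom, a replicate block, leaving out each library, and other windows, widths and overlaps. The result of 1 single gene is not reported here.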

Additional observations from a re-analysis of the deposited data

How the results depend on the processing

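The number of forkhead genes that passed, 2 at the reported setting, was 1 with no filter on low reads, 0 with the replicate block and 0 without any 1 library (range 0 to 0). Foxf1 was no longer called in 7 of 14 alternatives and Foxp1 in 8 of 14, with adjusted p from 0.0560 to 0.178 and from 0.0581 to 0.206 (0.0658 and 0.0766 with the block, 0.0763 for Foxp1 with no filter), and neither changed direction in any of them. The replicate numbers were not shown to pair the samples: deviations of same-numbered samples correlated at 0.410, 0.0781 and 0.0561, and not every sample correlated best with its own number. The block moved the count over all genes from 1001 to 1051. Without DMSO replicate 2 or EPZ6438 replicate 1, 2 or 3 that count was 335, 381, 372 and 309, and with no filter 628.

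The median log2 difference of tested members, 0.02, was 0.046 with no filter and 0.049 with median-of-ratios scaling, and between -0.030 and 0.015 without single libraries. Passing regulators of FoxO numbered 1; the count was 0 with no filter, 2 with at least 1 CPM, with median-of-ratios scaling, with voom and with the block, and 0 to 1 without single libraries. Passing genes of Polycomb repressive complex 2 numbered 1, with 0 under no filter, 2 with median-of-ratios scaling and with voom, and 0 to 1 without single libraries. Leaving out single libraries gave 2 to 5 FoxO targets (6 reported), 0 to 1 FoxM1 targets (0) and 1 to 2 Hedgehog genes (2). Peaks of at least 400 bp gave 10 members with H3K4me3 in DMSO where 22 were reported; the other counts of marked members stayed within 1.5 times under the 5 peak settings tried. Differences near 0 that changed sign, none of them called, were Foxk2 at 0.032 with median-of-ratios scaling and Foxd2 at -0.0020 with a pseudocount of 1 RPKM. Without single libraries the ranges were -0.025 to 0.027 for Foxk2, -0.33 to 0.37 for Foxd2, -0.023 to 0.15 for Foxo4, -0.062 to 0.13 for Foxn2, -0.030 to 0.045 for Foxn3, -0.14 to 0.015 for Foxk1, -0.30 to 0.0020 for Foxs1 and -0.031 to 0.16 for Foxf2. The cause of these changes was not tested. Few reads limit Foxd2 and the untested members, and without heights no peak difference has an error.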
